A study of Mus musculus with 4 samples.

Results

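Gpat3 and the enzymes of glycerolipid synthesis around it were followed in 2 subpopulations of mouse common lymphoid progenitors. The set holds 10 genes, which are the glycerol-3-phosphate acyltransferases Gpat3 and Gpam, the acyltransferases Agpat1, Agpat2, Agpat3 and Agpat5 of the next step, the lipins Lpin1 and Lpin2, and the diacylglycerol acyltransferases Dgat1 and Dgat2. All MOE430_2 probe sets annotated to 1 gene with one of these symbols were taken, which gave 23 of 34945 such probe sets and 10 of 18193 genes. The set was chosen by the difference of Gpat3 in log2 intensity between the same 2 groups in these data, with the other genes added as its pathway. Their differences between the groups are therefore given as descriptions, with no test.

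The common lymphoid progenitor (CLP) is a bone marrow cell that gives rise to B, T and natural killer cells. The study asked how far this compartment is made of distinct cells, and compared 2 fractions of it, CLP_RAGhigh and CLP_RAGlow, with 2 arrays each. Cells of both came from bone marrow of C57Bl6 mice aged 8 to 12 weeks, and 2000 cells gave the RNA of each sample. The sample descriptions name the fractions by high or low GFP. The labels used here give no allele for the reporter, no treatment and no number of animals per sample. They call the replicates biological without naming an animal or a sort for each. Each SD below thus measures the spread between these samples, and the number of arrays limits its precision. Each SE comes from a limma fit that also draws on the spread of other genes of like intensity. It is therefore not the spread of that gene alone. The median intensity was 14.6 to 14.9 on the 4 arrays. Of 6 CLP markers 5 were measured (Il7r, Flt3, Kit, Cd27 and Dntt), and their log2 intensities ran from 7.42 to 13.50 over the 4 arrays. Groups did not overlap for 2 that were higher in CLP_RAGhigh, Il7r and Dntt, with log2 differences of 0.81 and 0.06. The same held for 1 that was lower, Cd27, with a difference of -0.43. Over all genes 15.4% lay above and 15.8% below without overlap. Ly6a was not analysed here.

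Cells build membrane phospholipids and triglycerides along a shared route. A GPAT enzyme joins a fatty acid to glycerol-3-phosphate, an AGPAT enzyme adds a second fatty acid to give phosphatidic acid, and a lipin removes the phosphate to give diacylglycerol. Diacylglycerol then goes to phospholipids such as phosphatidylcholine, or a DGAT enzyme adds another fatty acid to make the triglyceride stored in lipid droplets. GPAT activity is divided between mitochondria and the endoplasmic reticulum. Gpam encodes an enzyme of the mitochondrial outer membrane, and Gpat3 an enzyme of the endoplasmic reticulum that is best known from adipocytes.

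The sequences before the starts of Gpat3 and Gpam are shown because their enzymes carry out the same first reaction and their measured differences lay far apart. Each is the 250 bases before the gene start in the RefSeq promoter table of GRCm38.p6, written 5′ to 3′ on the strand of the gene. For Gpat3 this is chr5:100845979-100846228 on the plus strand, inside the RefSeq gene record, which starts further upstream. For Gpam it is chr19:55127239-55127488 on the minus strand, which lies partly inside its gene record. No exon annotation was used here. Capitals mark matches to the GC box GGGCGG on either strand.

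Gpat3: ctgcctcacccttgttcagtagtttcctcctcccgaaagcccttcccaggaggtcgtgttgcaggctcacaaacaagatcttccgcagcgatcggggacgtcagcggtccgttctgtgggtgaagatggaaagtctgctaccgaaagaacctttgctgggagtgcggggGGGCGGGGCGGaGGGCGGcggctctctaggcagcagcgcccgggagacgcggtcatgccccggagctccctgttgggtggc

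Gpam: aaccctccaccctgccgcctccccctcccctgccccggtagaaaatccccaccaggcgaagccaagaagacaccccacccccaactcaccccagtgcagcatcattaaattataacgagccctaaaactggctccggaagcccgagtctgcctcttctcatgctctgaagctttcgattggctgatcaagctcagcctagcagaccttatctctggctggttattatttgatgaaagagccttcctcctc

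The Gpat3 window held 3 GC boxes, of which the first and the second share 1 base, and the printed Gpam window held 0. The table has 2 windows for Gpam, and the one not printed held 1 GC box. Of 32851 such windows of all genes, 32.7% held at least 1 GC box and 8.47% held 3 or more. The E-box CACGTG was found in 6.02% of all windows and the E-box CAGGTG in 17.2%. A sterol response element (TCACCCCAC) was in 0.496% and the octamer ATGCAAAT in 1.60% of windows. None of these 4 was in either printed window, on either strand, which says only that these letters are not there. Windows of 7 of the 10 genes were in the table, and they are no measurement of binding.

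Gpat3 was high on both CLP_RAGhigh arrays and among the dim probe sets on both CLP_RAGlow arrays. Its single probe set, 1454799_at, had intensities of 241.8 and 220.6 on CLP_RAGhigh replicates 1 and 2, and of 5.98 and 8.09 on CLP_RAGlow replicates 1 and 2. The groups did not overlap, and the gap between replicates on the log2 scale was 0.13 in CLP_RAGhigh and 0.44 in CLP_RAGlow. On the log2 scale the CLP_RAGhigh mean was 7.85 ± 0.09 (SD, n = 2) and the CLP_RAGlow mean 2.80 ± 0.31 (SD, n = 2). The log2 difference was 5.05 ± 0.34 (SE from limma, n = 2 per group), which is 33.2-fold on the deposited scale. This was the difference that led to the choice of the gene, and it ranked 2 of 18193 genes in the direction of CLP_RAGhigh.

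The size of the Gpat3 fold depends on its dim side. On the CLP_RAGlow arrays 21.7% and 34.2% of all probe sets were dimmer than the Gpat3 probe set, against 88.0% on each CLP_RAGhigh array. With 32 added to each intensity before log2, the difference was 2.75, or 6.74-fold. No detection calls were used here, so the CLP_RAGlow values are low intensities and not a measured absence. In sorted bulk samples, fewer cells with the transcript and less transcript per cell cannot be told apart.

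**Figure D1:**
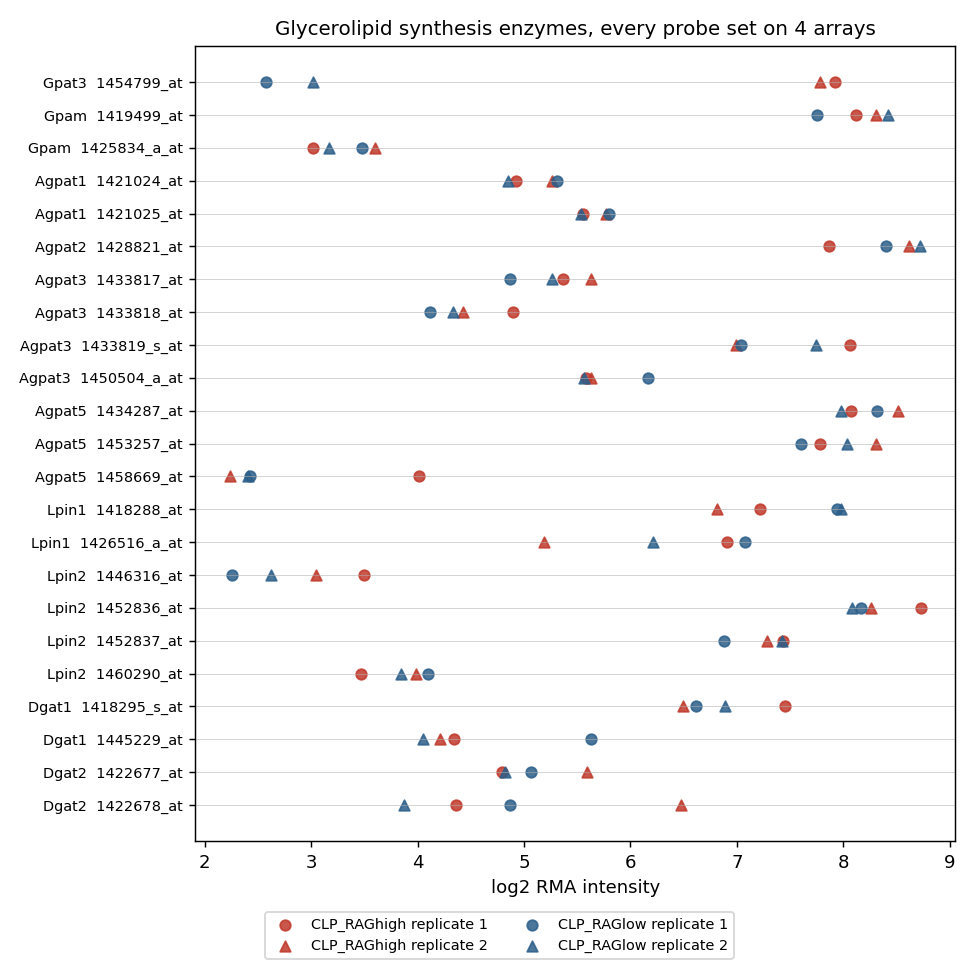
Log2 RMA intensity (horizontal axis) of the 23 probe sets of the 10 genes on each of the 4 arrays, with colour for the group and shape for the replicate. The Gpat3 points lie at 7.79 and 7.92 in CLP_RAGhigh and at 2.58 and 3.02 in CLP_RAGlow, while for 17 of the other 22 probe sets the groups overlap.

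Gpam, which encodes a mitochondrial GPAT, was bright in both groups and its groups overlapped. Intensities of 1419499_at were 277.7 and 316.2 on the CLP_RAGhigh arrays and 215.3 and 341.5 on the CLP_RAGlow arrays. The lowest and the highest of the 4 values were thus both from CLP_RAGlow. The log2 difference was 0.13 ± 0.36 (SE, n = 2 per group), less than the gap of 0.67 between the CLP_RAGlow replicates. The other Gpam probe set, 1425834_a_at, was dim on all 4 arrays, at log2 intensities of 3.02 to 3.60, and differed by -0.01 ± 0.29.

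Agpat1 and Agpat2, which encode endoplasmic reticulum enzymes that make phosphatidic acid, had overlapping groups. Intensities of Agpat1 (1421025_at) were 46.9 and 54.6 in CLP_RAGhigh and 55.7 and 46.5 in CLP_RAGlow. Its log2 difference was -0.01 ± 0.34, and the other probe set, 1421024_at, gave 0.01 ± 0.36. In both Agpat1 probe sets the difference was smaller than either replicate gap. For Agpat2, mutated in a human lipodystrophy, the single probe set had intensities of 233.7 and 393.8 in CLP_RAGhigh and 339.1 and 421.2 in CLP_RAGlow. Its difference of -0.32 ± 0.37 was smaller than the gap of 0.75 between the CLP_RAGhigh replicates, and it was 0.06 without CLP_RAGhigh replicate 1.

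Agpat3, another acyltransferase of the endoplasmic reticulum and Golgi, had probe sets that did not point one way. Its brightest, 1433819_s_at, had intensities of 267.1 and 127.3 in CLP_RAGhigh and 131.2 and 214.1 in CLP_RAGlow, with a log2 difference of 0.14 ± 0.50. The dimmer 1433817_at and 1433818_at differed by 0.43 ± 0.35 and 0.44 ± 0.33, each higher in CLP_RAGhigh without overlap. The fourth, 1450504_a_at, differed by -0.27 ± 0.38 with overlap. Agpat5, a mitochondrial member of the family, had 2 bright probe sets. Those of 1434287_at were 269.1 and 366.3 in CLP_RAGhigh and 319.2 and 251.9 in CLP_RAGlow, a difference of 0.15 ± 0.34, and 1453257_at differed by 0.23 ± 0.36. The groups overlapped in both. A dim Agpat5 probe set, 1458669_at, stood at a log2 intensity of 4.02 on CLP_RAGhigh replicate 1 and at 2.24 to 2.43 on the other 3 arrays.

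Of the 9 genes beside Gpat3, each by its brightest probe set, Lpin1 had the largest difference, and it was in the opposite direction. Lpin1 encodes a phosphatidate phosphatase that can also act as a transcriptional coactivator. Intensities of 1418288_at were 149.3 and 112.2 on the CLP_RAGhigh arrays and 246.4 and 252.5 on the CLP_RAGlow arrays. Both CLP_RAGlow arrays lay above both CLP_RAGhigh arrays, and the log2 difference of -0.95 ± 0.35 (SE, n = 2 per group), 1.93-fold higher in CLP_RAGlow, exceeded the larger replicate gap of 0.41. The other probe set, 1426516_a_at, differed by -0.60 ± 0.70, with log2 intensities of 6.91 and 5.19 in CLP_RAGhigh and 7.08 and 6.21 in CLP_RAGlow. Its groups overlapped, since CLP_RAGhigh replicate 1 lay above CLP_RAGlow replicate 2.

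Lpin2, the lipin mutated in a human inflammatory bone disease, had intensities of 423.5 and 307.3 in CLP_RAGhigh and 286.6 and 271.4 in CLP_RAGlow at 1452836_at. The groups did not overlap, but the difference of 0.37 ± 0.32 was smaller than the gap of 0.46 between the CLP_RAGhigh replicates, and it was 0.14 without CLP_RAGhigh replicate 1. The next brightest probe set, 1452837_at, differed by 0.21 ± 0.36 with overlap. The 2 dim ones went apart, with 0.83 ± 0.25 for 1446316_at (0.16 with the offset of 32) and -0.24 ± 0.31 for 1460290_at. Lpin1 and Lpin2 thus had brightest probe sets with differences of opposite sign, and the difference between the genes was not tested, since the contrast chose the set.

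The DGAT genes, whose products make triglyceride, had overlapping groups and wide replicate gaps. Dgat1 (1418295_s_at) had intensities of 175.7 and 90.4 in CLP_RAGhigh and 98.3 and 118.8 in CLP_RAGlow, so that both extremes were CLP_RAGhigh arrays, and differed by 0.22 ± 0.45. Its other probe set, 1445229_at, gave -0.57 ± 0.58. Dgat2, which encodes an enzyme unrelated in sequence to that of Dgat1, was dimmer at 27.8 and 48.2 in CLP_RAGhigh and 33.5 and 28.2 in CLP_RAGlow, and differed by 0.25 ± 0.39. At its other probe set, 1422678_at, CLP_RAGhigh replicate 2 stood at a log2 intensity of 6.47 and the other 3 arrays at 3.88 to 4.87, so that the difference of 1.05 ± 0.80 came from 1 array.

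**Figure D2:**
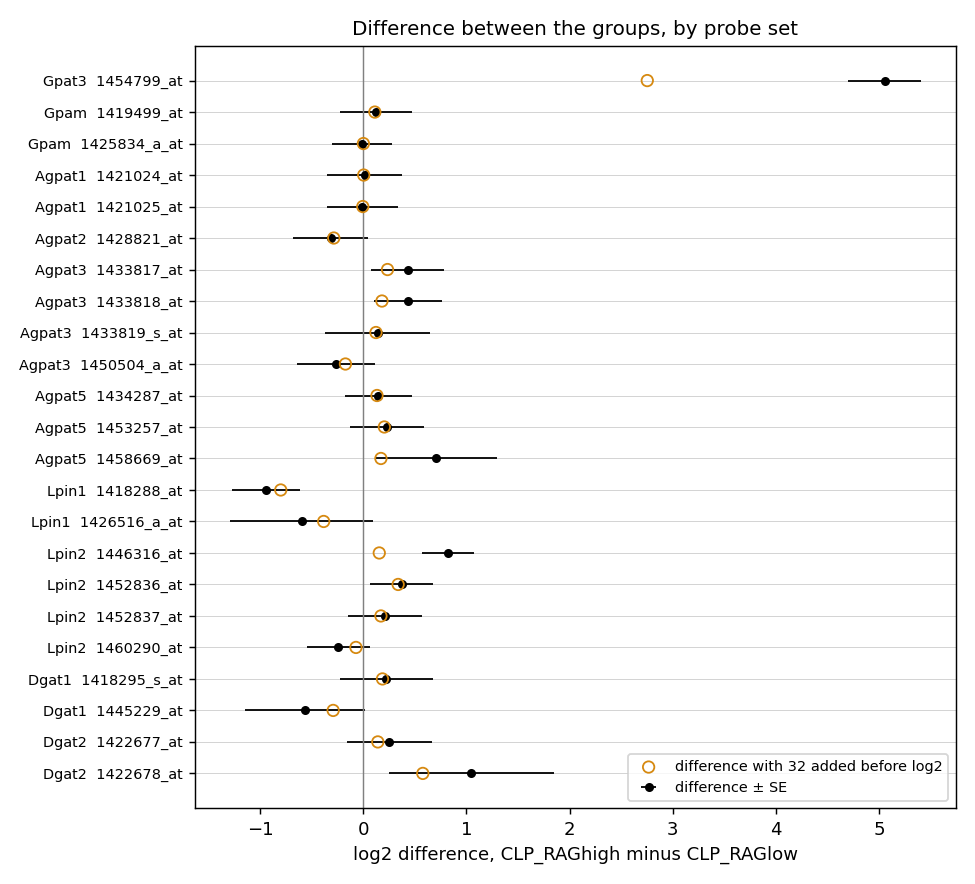
Log2 difference between the groups (CLP_RAGhigh minus CLP_RAGlow) for each of the 23 probe sets, as black points with the SE from a limma fit of every probe set, and as open circles with 32 added to the intensity before log2. Gpat3 lies at 5.05, or 2.75 with the offset, and the other 22 probe sets lie between -0.95 and 1.05.

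Over the 9 other genes, each by its brightest probe set, the median log2 difference was 0.14, against 0.003 over all 18193 genes. The direction of this median was not stable. It was -0.01 without probe sets that end in _x_at or _s_at and -0.08 without CLP_RAGhigh replicate 2. The mean was higher in CLP_RAGhigh for 6 genes and lower for 3, with a range from -0.95 to 0.37. Groups did not overlap for 1 gene above, Lpin2, and 1 below, Lpin1, where 15.4% of all genes lay above and 15.8% below. By probe set, 4 of 22 lay above and 1 below without overlap, against 15.5% and 15.2% of all probe sets. The difference exceeded the larger replicate gap in 3 of the 22, against 19.6% of all probe sets. Probe sets of 5 of the 10 genes differed in sign.

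Genes whose pattern over the 4 arrays was most like that of Gpat3 came from outside lipid synthesis. Likeness was the Euclidean distance between the 4 log2 values of each gene, centred on its own mean, and the median distance of all genes was 5.08. The 5 nearest were Map9, a microtubule-associated protein, at 0.81, Pou2af1, which helps octamer proteins activate B-cell genes, at 1.21, Scn4b, a sodium channel subunit, at 1.22, Zfp563, a zinc finger protein, at 1.58, and Ebf1, a transcription factor that sets the early B-cell programme, at 1.62. They are near Gpat3 because they differed between the same groups, and a distance over 4 arrays shows no more than that. Map9 had 3 probe sets with differences from 0.12 to 4.34, or 1.57 with probe sets averaged. Ebf1 had 5, from -0.09 to 3.69, or 2.69 averaged. Pou2af1, Scn4b and Zfp563 had 1 probe set each.

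**Figure D3:**
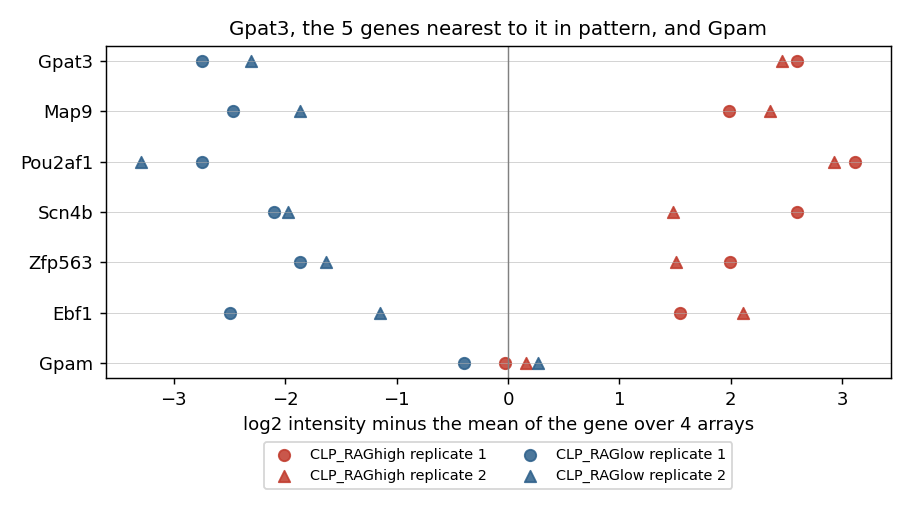
Log2 intensity minus the mean of the gene over the 4 arrays (horizontal axis) for Gpat3, the 5 genes nearest to it and Gpam, with colour for the group and shape for the replicate. In the upper 6 genes the CLP_RAGhigh points lie above 0 and the CLP_RAGlow points below 0, and those of Gpam are mixed.

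The wider lipid genes, which are not members of the set, were tested. Of 92 listed genes 86 were measured and 6 were not analysed here. With limma, at an adjusted p under 0.05 over all genes, 0 of the 86 were higher and 0 were lower in CLP_RAGhigh, as were 0.0% of all genes in either direction. Since 0 of all 18193 genes passed, the 0 given for each group of lipid genes below sets none of them apart. At an unadjusted limma p under 0.05, 2 were higher and 4 lower, against 2.35% and 2.94% of all genes. The median difference of the 86 genes was -0.009, and groups did not overlap for 14 above and 12 below, or 16.3% and 14.0%, near the 15.4% and 15.8% of all genes. An exact permutation test of 2 against 2 arrays cannot go below p = 0.333.

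Other acyltransferases of glycerophosphate and lysophospholipids had a median difference of -0.51 over 11 genes. The CLP_RAGhigh mean was the lower one for 9 of them and the higher one for 2, and 0 passed. Groups did not overlap for 4 below and 1 above, where the shares over all genes were 15.8% and 15.4%. Gpat4, which encodes the closest relative of the Gpat3 enzyme and was named after its values were seen, had log2 intensities of 5.61 and 5.72 in CLP_RAGhigh and 6.70 and 5.87 in CLP_RAGlow. Its difference was -0.62 ± 0.42 (limma adjusted p = 0.983), and its other probe set gave 0.04. The brightest of the group, Lpcat3 and Mboat7, which remodel phosphatidylcholine and phosphatidylinositol, differed by -0.21 ± 0.30 and -0.57 ± 0.57. The Mboat7 difference was smaller than the gap of 1.42 between its CLP_RAGhigh replicates, and lay between -1.28 and 0.14 with 1 array left out. Its 3 probe sets ran from -0.57 to 0.07. Mboat1, named after its values were seen, differed by -1.35 ± 0.34 (limma adjusted p = 0.718), -0.58 with the offset of 32 and -0.71 with its probe sets averaged.

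Diacylglycerol kinases, which return diacylglycerol to phosphatidic acid and end its signal, had a median difference of 0.18 over 7 genes, and 0 passed. Groups did not overlap for 4 above and 0 below, against 15.4% and 15.8% of all genes. Dgka, the form known for limiting diacylglycerol signals in lymphocytes, had log2 intensities of 7.92 and 7.43 in CLP_RAGhigh and 5.58 and 6.73 in CLP_RAGlow. Its difference was 1.52 ± 0.50 with a limma adjusted p of 0.869, and it was named after its values were seen. Without CLP_RAGlow replicate 1 it was 0.95. The brightest 2, Dgkz and Dgkd, differed by 0.21 ± 0.15 and 0.18 ± 0.33, and probe sets of Dgkd ran from -0.26 to 0.94.

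The head group branch, which makes phosphatidylcholine, phosphatidylethanolamine and other phospholipids, had a median of 0.05 over 19 genes. The CLP_RAGhigh mean was above the CLP_RAGlow mean for 10 and below it for 9, and 0 passed. Its brightest genes were Cdipt, the phosphatidylinositol synthase, at 0.13 ± 0.25, and Etnk1, an ethanolamine kinase, at 0.64 ± 0.37. Without probe sets that end in _x_at or _s_at, Cdipt gave 0.48. The Etnk1 difference was smaller than its larger replicate gap of 0.92, and lay between 0.18 and 1.10 with 1 array left out. Its 5 probe sets ran from -0.31 to 0.88. Chka, a choline kinase, and Selenoi, the ethanolamine phosphotransferase, were named after their values were seen, with differences of -1.13 ± 0.41 and -1.67 ± 0.44 (limma adjusted p = 0.899 and 0.745). Both had all CLP_RAGlow values above all CLP_RAGhigh values, and for both another probe set had a difference above 0, up to 0.38 for Chka and 0.18 for Selenoi. With probe sets averaged the differences were -0.58 for Chka and -1.03 for Selenoi.

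Supply of glycerol-3-phosphate and acyl-CoA had a median of -0.008 over 7 genes, with Acsl5, an acyl-CoA synthetase, at -0.04 ± 0.21 and Gpd1l, a glycerol-3-phosphate dehydrogenase, at 0.05 ± 0.61. The remaining phosphatases and the monoacylglycerol route had a median of -0.12 over 6 genes, with Plpp2, a lipid phosphate phosphatase, at -0.21 ± 0.38 and Mogat1, a monoacylglycerol acyltransferase, at 0.07 ± 0.30. Of both groups 0 genes passed.

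Genes for storing and breaking down triglyceride also had medians near that of all genes, and 0 passed. Lipid droplet genes had a median of 0.02 over 11 genes, with Plin2, a droplet coat protein, at -0.04 ± 0.41 and Bscl2, which encodes seipin, at -0.25 ± 0.30. Fitm2, needed for droplet budding and named after its values were seen, differed by -1.33 ± 0.52 (limma adjusted p = 0.928), and by -0.72 without CLP_RAGhigh replicate 2. Lipolysis genes had a median of 0.12 over 7 genes, with Pnpla2, the first lipase of triglyceride breakdown, at 0.003 ± 0.35 and Lipa, the lysosomal acid lipase, at -0.64 ± 0.36. Averaging the Lipa probe sets gave -0.03, and leaving out those that end in _x_at or _s_at gave 0.57.

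Fatty acid synthesis genes and lipid regulators had a median of -0.06 over 18 genes. The CLP_RAGhigh mean was above the CLP_RAGlow mean for 8 and below it for 10, and 0 passed. Elovl5, an elongase of polyunsaturated fatty acids, had log2 intensities of 11.03 and 10.93 in CLP_RAGhigh and 10.57 and 10.62 in CLP_RAGlow, a difference of 0.39 ± 0.16 with a limma adjusted p of 0.928. Averaging its probe sets gave 0.55, and leaving out those that end in _x_at or _s_at gave 0.72. Scd2, a desaturase, differed by -0.06 ± 0.19, and by 0.23 with its probe sets averaged. Pparg, a regulator of adipocyte genes chosen here after its values were seen, was dim on all 4 arrays, at log2 intensities of 2.47 to 3.05.

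**Figure D4:**
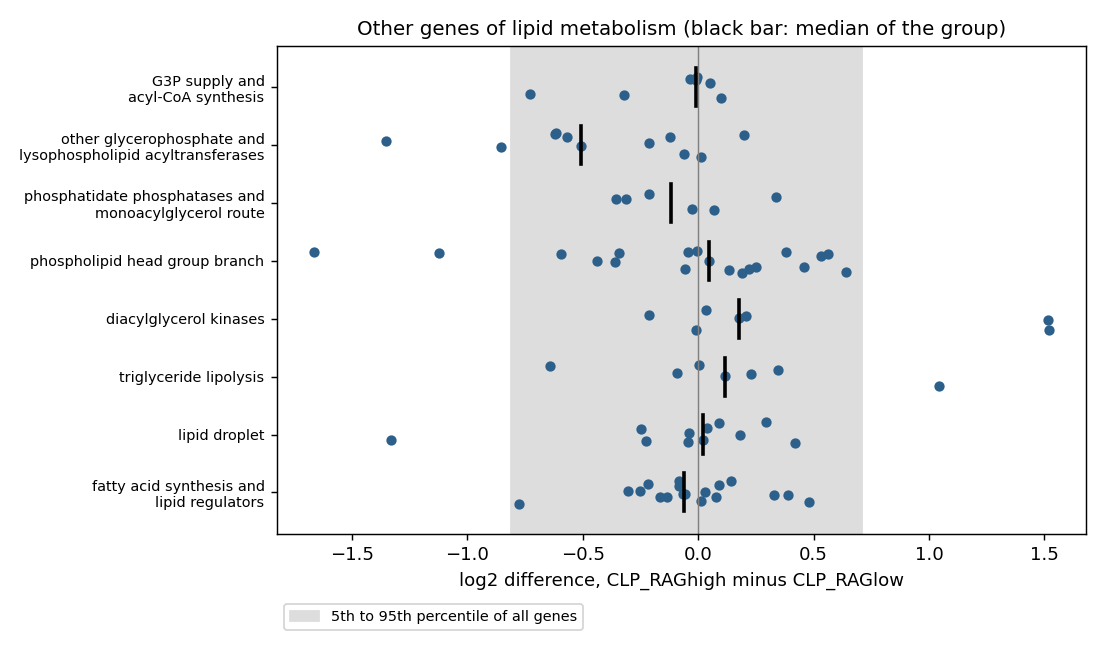
Log2 difference between the groups (CLP_RAGhigh minus CLP_RAGlow) for 86 other lipid genes in 8 groups, 1 point per gene, with a black bar at the median of each group and a grey band from the 5th to the 95th percentile of all 18193 genes, at -0.81 and 0.71. Most points lie within the band, and the group medians run from -0.51 to 0.18.

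Markers of other cell types were summed over their lists. Of 8 adipocyte markers 6 were measured, 5 of them below the median of all probe sets on every array. Plin1 and Cidec of this list are also in the lipid droplet group. The summed intensity was 45.3 and 51.1 in CLP_RAGhigh and 48.3 and 46.3 in CLP_RAGlow, so the groups overlapped. Adipoq and Lep, which define adipocytes, had log2 intensities of 1.99 to 2.64 and 2.01 to 2.28. Stromal markers (6 of 6 measured) summed to 425.8 and 509.9 in CLP_RAGhigh and to 529.4 and 586.1 in CLP_RAGlow. Most of each sum was Pdgfrb, at log2 intensities of 8.52 to 8.99, while the others lay at 3.23 to 4.76.

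Blood cell lists varied more. Granulocyte markers (6 of 6) summed to 3620 and 3900 in CLP_RAGhigh and to 4727 and 2160 in CLP_RAGlow. S100a8 had log2 intensities of 9.62 and 9.60 in CLP_RAGhigh and of 10.15 and 3.81 in CLP_RAGlow. S100a9, Ngp and Camp were also lowest on CLP_RAGlow replicate 2, at 3.79, 3.80 and 3.55. Mpo was bright on all 4 arrays, at 10.70 to 11.03, and highest on that array. Without overlap 1 of the 6, Elane, was higher in CLP_RAGhigh, by 0.41, and 0 were lower, against 15.4% and 15.8% of all genes. Macrophage and monocyte markers (6 of 6) summed to 364.5 and 465.5 in CLP_RAGhigh and to 987.5 and 963.3 in CLP_RAGlow. Most of this difference was that of Csf1r, a growth factor receptor of monocytes and their precursors. Its log2 intensities were 6.79 and 8.26 against 9.31 and 9.54. Lyz2 stood at 7.8 and 6.9 against 8.3 and 7.4, with overlap. Mrc1 differed by -0.57 with overlap, and Cd68 and Adgre1 by 0.20 and 0.02. Adgre1 and C1qa had log2 intensities of at most 3.33. Without overlap 2 of the 6, Csf1r and C1qa, were lower in CLP_RAGhigh and 0 were higher, against 15.8% and 15.4% of all genes. Erythroid markers (4 of 5) summed to 215.5 and 122.4 against 115.7 and 62.7. Without overlap 1 of the 4, Klf1, was higher in CLP_RAGhigh, by 2.0, and 0 were lower, against 15.4% and 15.8% of all genes. B-cell markers (5 of 6) summed to 4656 and 2518 in CLP_RAGhigh and to 2370 and 3135 in CLP_RAGlow. Most of each sum was Ighm, at log2 intensities of 12.14 and 11.24 against 11.18 and 11.59, with overlap. Of the 5, 3 were higher in CLP_RAGhigh without overlap, namely Cd79a, Pax5 and Cd22, with log2 differences of 2.0, 1.0 and 0.7. Only 1, Ms4a1, was lower without overlap, by -0.39, and it was dim at 2.61 to 3.32. The shares over all genes were 15.4% above and 15.8% below. T-cell markers (5 of 6) summed to 108.6 and 128.0 against 96.6 and 109.9. Without overlap 2 of the 5 were higher in CLP_RAGhigh, Cd5 by 1.0 and Cd8a by 0.26, and 0 were lower, against 15.4% and 15.8% of all genes. The part of the cells of any marker list in the Gpat3 difference was not tested.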

How the data were processed

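RNA of 2000 cells per sample went through dual amplification, was labelled and put on MOE430_2 arrays of Affymetrix, per the labels. The deposited values are RMA intensity values, 1 per probe set, per the labels' series design. RMA corrects background, normalizes between arrays and summarises probes. For software, version, filters and genome build, the sources used here give nothing. With intensities between 2.35 and 19893 the scale was taken as linear, and values were turned to log2. Amplification from few cells favours 3′ ends, so probe sets of a gene can differ.

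Of 45101 rows, 64 controls were left out, and 34945 probe sets had 1 gene in the platform annotation (932 had several, 9160 none). The brightest probe set by mean log2 stood for each gene. Limma 3.58.1 in R 4.3.3 (intensity trend, two-sided, Benjamini-Hochberg over 18193 genes, threshold 0.05) gave differences as CLP_RAGhigh minus CLP_RAGlow. SEs of other probe sets come from the same fit over all probe sets. Limma SEs are moderated toward the trend over genes, in the main fit with 3.75 prior and 2 residual degrees of freedom. The fit was tested on simulated data. Genes called dim have low intensities, near or below the median log2 intensity of 3.88.

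The members and lists were chosen with earlier results of these data known. Named are the 10 members, the 2 brightest genes of each of 8 wider groups, genes past the threshold and the 5 genes nearest to Gpat3. Others are said to have been named after their values were seen. Alternatives were the choice of probe set, an offset of 32, quantile normalization, a filter on dim genes, no trend, every probe set fitted, a replicate block and each array left out. Figures were drawn with matplotlib 3.10.9.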

Additional observations from a re-analysis of the deposited data

How the results depend on the processing

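The Gpat3 difference was 2.75 with an offset of 32, and between 4.83 and 5.27 with 1 array left out. The median of the 9 other genes lay between -0.08 and 0.13 with 1 array left out and at 0.06 with probe sets averaged. Limma called 0 genes over all genes, and 2 with probe sets averaged, 3 after quantile normalization, 1 without dim genes and 7 with a replicate block. The block is given for completeness, since same-numbered arrays did not deviate together (correlation across genes of -0.02). Under every alternative run, 0 wider lipid genes were called. With 1 array left out the lone sample is assumed to vary like the other group. In those fits 0 genes were called by limma over all genes, and 539 to 1634 had an unadjusted p under 0.05. Differences of 35 other named genes moved by more than the replicate SD for 8 genes with probe sets averaged and 6 with the offset. Without probe sets that end in _x_at or _s_at, 4 did. Leaving out 1 array cannot move a difference by more than this SD, so no such count is given for those fits. Signs could still change. The Mboat7 difference was -0.57 with all arrays and 0.14 without CLP_RAGhigh replicate 2, and that of Dgat1 was 0.22 and, without CLP_RAGhigh replicate 1, -0.26. Low intensity limits the folds of Gpat3, Pou2af1, Map9, Scn4b and Zfp563 on the CLP_RAGlow side.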

Other observations

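Some wider lipid genes stood apart on 1 array, by the largest gap between replicates among the 86 genes. Mgll, the lipase that breaks down monoacylglycerol, had log2 intensities of 3.41 and 6.73 in CLP_RAGhigh and 4.10 and 3.96 in CLP_RAGlow. Chpt1, a choline phosphotransferase, stood at 3.57 on CLP_RAGhigh replicate 1 and at 4.92 to 6.09 on the other 3 arrays. Pcyt1a, the regulated enzyme of phosphatidylcholine synthesis, stood at 4.20 on CLP_RAGhigh replicate 2 and at 5.79 to 6.27 on the others. Dgke, a diacylglycerol kinase, had 6.70 and 6.48 in CLP_RAGhigh and 4.09 and 6.06 in CLP_RAGlow. These genes were picked for their gaps, and the values carry no test.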
